A study of Arabidopsis thaliana with 12 samples.

Results

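The genes described here are 7 Arabidopsis genes whose products act on pectin or belong to pectin-related families, and whose transcripts were changed in the same direction in both brm-1 and ga1-3 relative to the wild type. They are the pectin methylesterase gene AT3G10720, the inhibitor-family genes AT1G14890 and AT3G62820, the pectin acetylesterase genes AT5G23870 (PAE9) and AT3G62060 (PAE6), the polygalacturonase-family gene AT4G33440 and the polygalacturonase-inhibitor gene PGIP2 (AT5G06870). Each was measured by 1 probe set of the ATH1 array, so the group makes up 7 of the 16764 probe sets tested. The changes in the single mutants are what chose these genes, so they are given below as a description, and the tests concern the ga1-3/brm-1 double mutant.

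RNA came from shoots of 18-d-old seedlings of 4 genotypes, with 3 biological replicates and 3 arrays each, 12 arrays in all. All lines were of the Col-0 ecotype and were grown on medium with sucrose. The wild type carries intact BRM and GA1. The brm-1 line lacks BRM, the ATPase of a SWI/SNF complex that moves nucleosomes, and ga1-3, which was introgressed into Col-0, is defective in GA1, the enzyme of the first committed step of gibberellin (GA) synthesis. The double mutant ga1-3/brm-1 came from a cross of heterozygous brm-1 plants with ga1-3. Plants homozygous for brm-1 are sterile, so they were picked by genotyping from segregating progeny. Seeds of the ga1-3 background were soaked in the gibberellin GA3 before sowing, and this step cannot be told apart from the genotype in ga1-3 and ga1-3/brm-1. All signals below are log2 GC-RMA signals, a background-corrected probe brightness, so a difference of 1 is a change of 2-fold. Signals of different probe sets cannot be set against each other, so each gene is compared only with itself across genotypes.

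Pectin is the gel-forming polysaccharide of the plant cell wall, and its main chain, homogalacturonan, is secreted with methyl ester groups and partly with acetyl groups. Pectin methylesterases remove the methyl groups, which lets calcium cross-link the chains or opens them to degradation. Pectin acetylesterases remove the acetyl groups. Polygalacturonases and pectate lyases cut the chain, the former by hydrolysis and the latter by elimination. Small proteins of the invertase and pectin methylesterase inhibitor superfamily bind and block either of these enzyme types, and which of them AT1G14890 and AT3G62820 bind is not stated in the sources used here. Polygalacturonase-inhibiting proteins are leucine-rich repeat proteins of the wall that block polygalacturonases of fungi. The loosening and stiffening of pectin accompanies growth of cells in shoots, and GA is a hormone that promotes such growth.

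In the double mutant, as in both single mutants, 4 of the 7 genes had lower signals than in the wild type (AT3G10720, AT1G14890, AT5G23870 and PGIP2) and 3 had higher signals (AT3G62820, AT3G62060 and AT4G33440). Both inhibitor-family genes and both acetylesterase genes split, 1 of each pair being higher and 1 lower. For all 7 genes the 3 double-mutant arrays lay entirely on one side of the 3 wild-type arrays, as they did for 53.3% of all probe sets. The same held for all 7 in brm-1 (39.4% of all probe sets) and in ga1-3 (33.9%), but these are the contrasts that chose the genes. All 7 passed the call in the double mutant against the wild type (limma with Benjamini-Hochberg adjustment over all probe sets, adjusted p under 0.05 and fold change over 1.5), a call made for 23.6% of all probe sets. The double-mutant arrays took no part in the choice of the genes, but the wild-type arrays did. Of the 559 probe sets called in the same direction in both single mutants, 512 (91.6%) were also called in the double mutant, so the 7 of 7 lies close to what that wider group showed. The same wild-type arrays serve all 3 contrasts with the wild type.

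**Figure D1:**
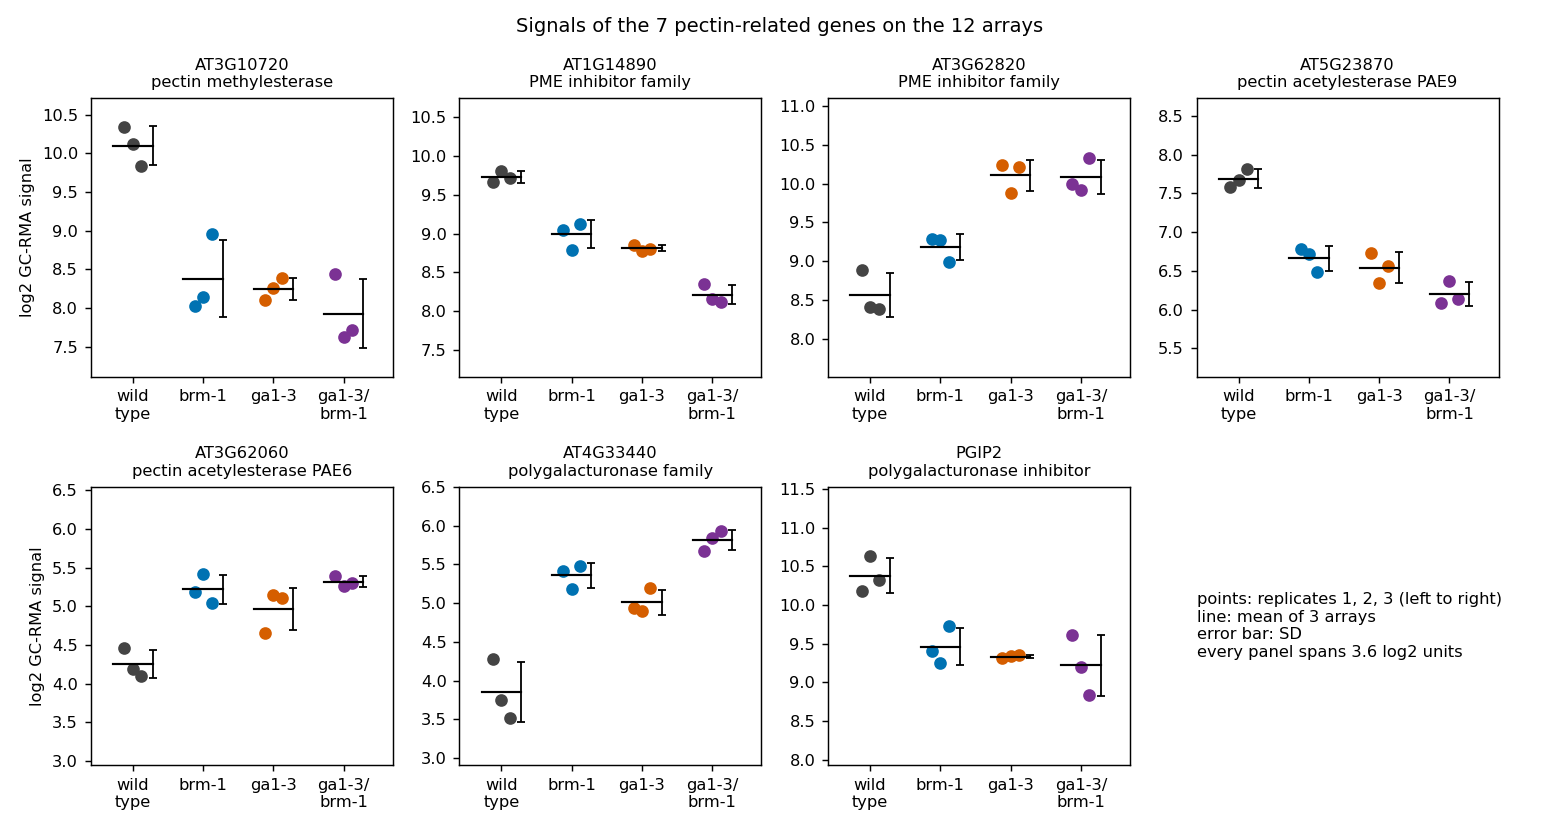
Log2 GC-RMA signals (vertical axis) of the 7 genes on the 12 arrays, by genotype (horizontal axis). Points are replicates 1 to 3 from left to right, lines are means and bars are SD (n = 3). Each panel spans the same range of log2 units, and in every panel the wild-type points lie apart from the points of all mutants.

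The BRM probe set lay between 2.72 and 3.01 on the 6 arrays of lines with brm-1 and between 7.84 and 8.28 on the other 6. No probe set named here stands for GA1, so the ga1-3 label was not checked on its own gene. Array medians were close to each other, but brm-1 replicate 3 stood apart from its group, with 37.78 on the first component of the deviations from the genotype means against -19.98 and -17.80 for the other brm-1 arrays and -9.80 to 6.99 for the arrays of the other genotypes. For the 7 genes, changes that use brm-1 are therefore also given without it, whereas those of the other pectin genes include it. Of the markers of other organs, few had a named probe set: 1 of 7 for leaf photosynthesis, 1 of 6 for root and 2 of 6 for flower. RCA, rubisco activase of the leaf, had means of 14.28 in the wild type, 13.88 in brm-1, 14.46 in ga1-3 and 14.09 for the double mutant, with no call. PYK10, a beta-glucosidase abundant in roots, rose from 9.87 ± 0.51 (SD, n = 3) in the wild type to 11.58 ± 0.22 in ga1-3 and 12.43 ± 0.25 for the double mutant, and stood at 10.23 ± 0.59 in brm-1. The floral identity genes went different ways. PI had means of 6.0 in the wild type, 6.33 in brm-1, 6.04 in ga1-3 and 5.07 for the double mutant, where alone it was called. SEP3 had 7.22, 8.26, 5.12 and 7.62 in the same order and was called in ga1-3 alone. The part of these shifts in the results below was not tested. In whole shoots, a change in the share of cells that express a gene cannot be told apart from a change in its RNA per cell.

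AT3G10720, the pectin methylesterase gene, showed the largest fall of the 7 genes. Its signals on replicates 1 to 3 were 10.34, 10.12 and 9.84 in the wild type. They were 8.03, 8.15 and 8.95 in brm-1, and 8.11, 8.26 and 8.39 in ga1-3. The double mutant gave 8.44, 7.63 and 7.72. All 9 mutant arrays were below the lowest wild-type array, and the mutants overlapped with each other. The single-mutant changes were -1.72 ± 0.27 (standard error) in brm-1 and -1.85 ± 0.27 in ga1-3. In the double mutant AT3G10720 fell by 2.17 on the log2 scale (95% confidence interval -2.77 to -1.57, 4.50-fold, adjusted p = 0.00018). The double mutant was not called against brm-1 (-0.45, interval -1.04 to 0.15, adjusted p = 0.31) or against ga1-3 (-0.32, interval -0.92 to 0.28, adjusted p = 0.40). The highest of the brm-1 arrays was replicate 3, and without it the change in brm-1 was -2.01 and the double mutant differed from brm-1 by -0.16.

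AT1G14890, an inhibitor-family gene, also fell in all mutants, and it was the gene for which the double mutant was called lower than both single mutants. The wild-type signals were 9.66, 9.81 and 9.72. In brm-1 they were 9.05, 8.78 and 9.13, in ga1-3 8.85, 8.77 and 8.80, and in ga1-3/brm-1 8.34, 8.16 and 8.12. The highest double-mutant array lay below the lowest array of each single mutant. The changes against the wild type were -0.75 ± 0.10 in brm-1 and -0.93 ± 0.10 in ga1-3, and the double mutant fell by 1.52 (interval -1.75 to -1.30, 2.88-fold, adjusted p = 5.6e-06). Relative to brm-1 it fell by 0.78 (1.72-fold, adjusted p = 0.0015), and by 0.71 without brm-1 replicate 3 (adjusted p = 0.0037), where the change in brm-1 was -0.82. Relative to ga1-3 it fell by 0.60 (1.52-fold, adjusted p = 0.0016). That last fold lies just inside the threshold of 1.5, and the call was lost when ga1-3 replicate 1 (-0.58), double-mutant replicate 2 (-0.57) or double-mutant replicate 3 (-0.56) was left out, each time with an adjusted p under 0.05.

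AT3G62820, the other inhibitor-family gene, went the opposite way. Its signals were 8.88, 8.41 and 8.39 in the wild type and 9.29, 9.28 and 8.99 in brm-1. In ga1-3 they reached 10.23, 9.88 and 10.21, and in the double mutant 9.999, 9.91 and 10.33. The arrays fell into 3 separate levels, with the wild type lowest, brm-1 between, and ga1-3 together with the double mutant at the top. The rise was 0.63 ± 0.17 in brm-1 (0.72 without brm-1 replicate 3) and 1.55 ± 0.17 in ga1-3, and ga1-3 exceeded brm-1 by 0.92 (1.90-fold, adjusted p = 0.0034; 0.83 and adjusted p = 0.013 without brm-1 replicate 3). This was 1 of 7 genes called between the single mutants, a comparison added after the data were seen, in which 14.7% of all probe sets were called. The ranges of the single mutants were apart for AT3G62820 only, and for 36.9% of all probe sets. The double mutant rose by 1.52 over the wild type (interval 1.15 to 1.90, 2.87-fold, adjusted p = 9e-05) and by 0.90 over brm-1 (1.86-fold, adjusted p = 0.0074; 0.80 and adjusted p = 0.02 without brm-1 replicate 3). Its difference from ga1-3 was -0.03 with an interval of -0.40 to 0.35 (adjusted p = 0.92). PYK10, the root marker, also had its lowest mean in the wild type (9.87), followed by brm-1 (10.23, not called). Its means in ga1-3 (11.58) and the double mutant (12.43) were higher, both called. A part of root tissue in the rise of AT3G62820 was not tested. The rise of AT3G62820 in brm-1 is the weakest of the 14 single-mutant changes, 1.54-fold against the threshold of 1.5, and its call was lost in 4 of the 12 fits that left out 1 array each.

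The acetylesterase genes moved in opposite directions. AT5G23870 (PAE9) fell: its signals were 7.59, 7.67 and 7.82 in the wild type, 6.79, 6.72 and 6.48 in brm-1, 6.73, 6.34 and 6.56 in ga1-3, and 6.09, 6.37 and 6.14 in the double mutant. No mutant array reached the wild-type range, and the double-mutant arrays were all below those of brm-1 but overlapped with ga1-3. The single-mutant changes were -1.03 ± 0.13 in brm-1 and -1.15 ± 0.13 in ga1-3, and the double mutant fell by 1.49 (interval -1.78 to -1.21, 2.81-fold, adjusted p = 2.2e-05). Against brm-1 the double mutant had -0.46 (interval -0.75 to -0.18), which passed the adjusted p (0.038) but not the fold threshold (1.38-fold). Without brm-1 replicate 3 this difference was -0.56 (adjusted p = 0.025) and the change in brm-1 was -0.94. Against ga1-3 it had -0.35 (interval -0.63 to -0.06, adjusted p = 0.061).

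AT3G62060 (PAE6) rose from a low signal. Wild-type arrays gave 4.46, 4.19 and 4.10, with a mean at the 23rd percentile of all probe sets. The signals were 5.18, 5.42 and 5.05 in brm-1, 4.65, 5.14 and 5.10 in ga1-3, and 5.39, 5.26 and 5.31 in the double mutant. Every mutant array was above the wild type, although the gap to the lowest ga1-3 array was small. The rise was 0.97 ± 0.15 in brm-1 and 0.72 ± 0.15 in ga1-3, and 1.07 for the double mutant (interval 0.74 to 1.40, 2.1-fold, adjusted p = 0.00039). The double mutant did not pass the call against brm-1 (0.10, interval -0.23 to 0.44, adjusted p = 0.72) or against ga1-3 (0.35, interval 0.02 to 0.69, adjusted p = 0.096), although its arrays were all above those of ga1-3. Without brm-1 replicate 3 the change in brm-1 was 1.05 and the double mutant exceeded brm-1 by 0.02 (adjusted p = 0.96).

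AT4G33440, the polygalacturonase-family gene, had the largest rise of the 7 in brm-1 and in the double mutant. In ga1-3 that of AT3G62820 was larger. Its wild-type signals were low, 4.27, 3.75 and 3.52, with a mean at the 20th percentile of all probe sets. The arrays of brm-1 gave 5.42, 5.18 and 5.48, those of ga1-3 4.94, 4.90 and 5.20, and those of the double mutant 5.67, 5.84 and 5.93. The double mutant was above all arrays of both single mutants. The rise was 1.51 ± 0.18 in brm-1, 1.16 ± 0.18 in ga1-3 and 1.97 for the double mutant (interval 1.57 to 2.36, 3.91-fold, adjusted p = 2.8e-05). Relative to ga1-3 the double mutant rose by 0.80 (1.75-fold, adjusted p = 0.0062), and relative to brm-1 it had 0.46 (interval 0.06 to 0.85, adjusted p = 0.12), or 0.52 without brm-1 replicate 3 (adjusted p = 0.12), where the rise in brm-1 was 1.45. The table holds only probe sets detected in at least 1 array of some genotype. For AT4G33440 and AT3G62060, the genes with low wild-type signals, detection calls on the wild-type arrays were not analysed here. AT4G33440 lies on chromosome 4, like GA1, with 3123 protein-coding genes between them.

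PGIP2, the inhibitor of polygalacturonases, was below the wild type in all mutants. The wild type gave 10.18, 10.63 and 10.33. The signals were 9.41, 9.25 and 9.73 in brm-1, 9.31, 9.34 and 9.35 in ga1-3, and 9.62, 9.20 and 8.84 in the double mutant. The mutants overlapped with each other and lay below the wild type, and the double mutant had the widest spread. The changes were -0.92 ± 0.19 in brm-1, -1.05 ± 0.19 in ga1-3 and -1.16 for the double mutant (interval -1.59 to -0.73, 2.23-fold, adjusted p = 0.001). The double mutant differed from brm-1 by -0.24 (interval -0.67 to 0.18, adjusted p = 0.45) and from ga1-3 by -0.11 (interval -0.54 to 0.31, adjusted p = 0.69). Without brm-1 replicate 3 the change in brm-1 was -1.05 and the double mutant differed from it by -0.11 (adjusted p = 0.77). PGIP1, which lies next to PGIP2 on chromosome 5, has no named probe set here.

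**Figure D2:**
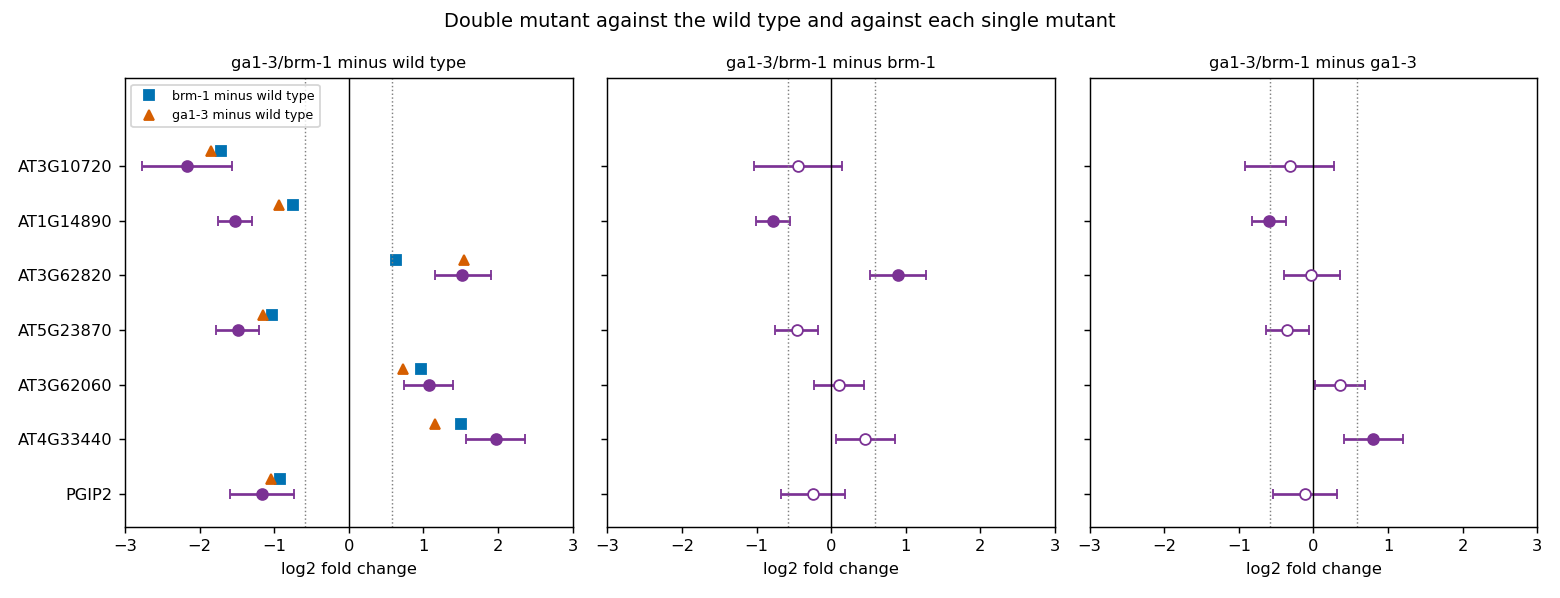
Log2 fold changes (horizontal axis) of the 7 genes in the double mutant against the wild type, brm-1 and ga1-3, with 95% confidence intervals. Filled circles passed the call and open circles did not, dotted lines mark 1.5-fold, and squares and triangles are the single-mutant changes; all 7 circles are filled against the wild type, 2 against brm-1 and 2 against ga1-3.

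The addition of ga1-3 to brm-1, read as ga1-3/brm-1 against brm-1, was called for 2 of the 7 genes, AT3G62820 higher and AT1G14890 lower, beside 8.76% of all probe sets. The addition of brm-1 to ga1-3 was called for 2 of 7, AT4G33440 higher and AT1G14890 lower, beside 20.8% of all probe sets. Among the 559 probe sets called alike in both single mutants the shares were 24.5% and 35.2%. Thus AT1G14890 alone of the 7 was called in both of these comparisons. The signal ranges did not overlap for 4 of 7 genes between the double mutant and brm-1 and for 3 of 7 between the double mutant and ga1-3, where 34.6% and 48.4% of all probe sets had no overlap. The brm-1 and ga1-3 arrays took part in the choice of the genes, and these comparisons are not independent of it.

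Next, the double mutant was set against the sum of the single-mutant changes, the value that independent effects on the log2 scale would give. For AT1G14890 the sum was -1.67 and the double mutant reached -1.52, 91.2% of it. For the other 6 genes the double mutant reached between 59.1% and 73.5% of the sum. The lowest share was that of PGIP2 (-1.16 of -1.96), followed by AT3G10720 (-2.17 of -3.58), AT3G62060 (1.07 of 1.68), AT5G23870 (-1.49 of -2.18), AT3G62820 (1.52 of 2.18) and AT4G33440 (1.97 of 2.68). The shortfall from the sum had a 95% interval that did not hold 0 for these 6 genes, and it was largest for AT3G10720 (1.41 ± 0.38, interval 0.56 to 2.25; 1.69 without brm-1 replicate 3). For AT1G14890 the interval was -0.17 to 0.47. Without brm-1 replicate 3 the difference of the double mutant from the sum was 0.22 for AT1G14890, 0.93 for PGIP2, 0.59 for AT5G23870, -0.70 for AT3G62060, -0.75 for AT3G62820 and -0.65 for AT4G33440. The genes were chosen for changes in both single mutants, and both of these changes enter the sum, so the shortfalls are a description with no test. The interaction had an adjusted p under 0.05 for AT3G10720 and AT5G23870, but the choice of the genes enters it, so this is no test of them. All probe sets, of which 8.90% passed, were not chosen in this way and are no yardstick.

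**Figure D3:**
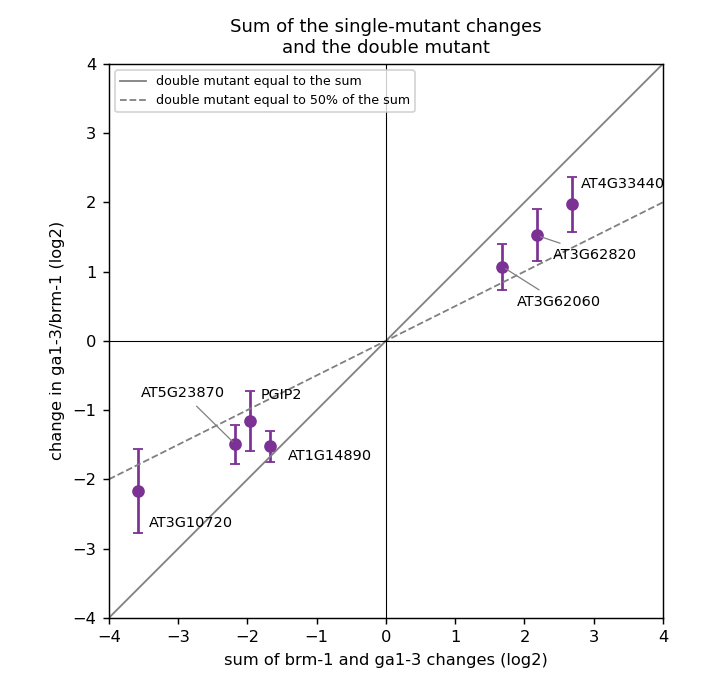
Change in the double mutant (vertical axis, log2, with 95% confidence intervals) against the sum of the brm-1 and ga1-3 changes (horizontal axis, log2) for the 7 genes. Points on the solid line would equal the sum and points on the dashed line 50% of it; AT1G14890 lies nearest to the solid line.

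To see how far other pectin genes behaved alike, a list of 123 loci of 7 families was used: methylesterases, inhibitor-family proteins, acetylesterases, polygalacturonases, pectate lyases, polygalacturonase inhibitors and galacturonosyltransferases, the Golgi enzymes that build the chain. The platform annotation named 54 of these loci. Without the genes above, 51 probe sets of 50 loci remained, of which brm-1 had 9 higher and 1 lower, ga1-3 had 3 higher and 7 lower, and the double mutant had 10 higher and 4 lower. The called shares were 19.6% for brm-1 (14.7% of all probe sets), 19.6% for ga1-3 (8.79%) and 27.5% for the double mutant (23.6%). The median changes of the list were 0.08, 0.03 and 0.01, beside 0.01, 0.02 and -0.02 for all probe sets. Against brm-1 the double mutant had 5 calls, all lower (9.80% called, beside 8.76% of all probe sets). Against ga1-3 it had 8 higher and 4 lower (23.5%, beside 20.8%). Of the 51, 2 were called in both single mutants, or 3.92%, beside 3.88% of all probe sets. Another 8 were called in brm-1 alone, 8 in ga1-3 alone and 33 in neither. The platform annotation named 4 of the 7 genes, and these were taken out of the list. They had been chosen for changes in both single mutants, so their removal lowers the 3.92%. It also lowers the called shares against the wild type and those of the double mutant against each single mutant. The 3.92% therefore cannot tell whether pectin genes changed in both single mutants more often than other genes.

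The 2 probe sets called in both single mutants stand for methylesterase genes, and both were called in the same direction in each. PMEPCRF (AT5G53370) had 0.59 ± 0.18 in brm-1 and 0.64 ± 0.18 in ga1-3, and rose by 0.85 in the double mutant (adjusted p = 0.0045). Its single-mutant calls were marginal, with an adjusted p of 0.043 in each and a change in brm-1 just over the fold threshold. ATPMEPCRB (AT4G02330) had -1.13 ± 0.32 in brm-1 and -1.34 ± 0.32 in ga1-3, but in the double mutant it had -0.66 (adjusted p = 0.13). In the single mutants these genes meet the same calls as the 7, and they were not among the genes picked. Of them, PMEPCRF alone was also called in the double mutant. The acetylesterase gene AT5G26670 was called in 1 single mutant, brm-1, with 0.74 ± 0.24 and an adjusted p that rounds to the threshold of 0.05. It had 0.59 ± 0.24 in ga1-3, where it was not called (adjusted p = 0.13), and 1.07 in the double mutant (adjusted p = 0.0054).

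Among 18 pectate lyase probe sets 4 were called in brm-1 and 4 in the double mutant, all higher, and 1 was called in ga1-3, lower. The called shares were 22.2% in brm-1 (14.7% of all probe sets), 5.56% in ga1-3 (8.79%) and 22.2% in the double mutant (23.6%). The counts in ga1-3 and in the double mutant thus did not exceed the shares of all probe sets. AT1G67750 had 3.33 ± 0.40 in brm-1 and 2.93 when both alleles were combined, both called, and had 0.78 in ga1-3. AT3G53190 (2.45 in brm-1, 1.99 in the double mutant) and AT4G24780 (2.09 and 1.81) likewise had no call in ga1-3, and ga1-3 was below brm-1 for each of these 3 genes (-2.55, -1.71 and -2.71, adjusted p = 0.0014, 0.0077 and 0.00024). They were picked for their rise in the double mutant. AT1G67750 had a wild-type mean of 2.86, within the 2.72 to 3.01 of the BRM probe set in lines with brm-1. The size of its folds is therefore uncertain.

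Of 14 methylesterase probe sets other than that of AT3G10720, brm-1 had 2 higher and 1 lower, ga1-3 had 2 higher and 3 lower, and the double mutant had 2 calls, both higher. In this order the called shares were 21.4%, 35.7% and 14.3%, beside 14.7%, 8.79% and 23.6% of all probe sets. AT3G43270 had 1.92 ± 0.29 in brm-1 and 0.85 when both alleles were combined, both called, and had -0.13 in ga1-3. Of 7 other inhibitor-family probe sets 1 was higher in brm-1, and 1 was higher and 2 were lower in ga1-3 and in the double mutant. The called shares of these 7 were 14.3% in brm-1 and 42.9% in each of the other mutants, beside the same shares of all probe sets. AT5G20740 rose by 3.02 ± 0.34 in brm-1 and 1.92 in the double mutant, with 0.03 in ga1-3. AT5G62360 fell by 2.56 in ga1-3 and, in ga1-3/brm-1, fell by 1.75, with -0.36 ± 0.51 in brm-1, and AT4G25260 fell by 0.98 in the double mutant, with -0.56 in brm-1 and -0.18 in ga1-3, neither called. Its double mutant did not pass the call against brm-1 (-0.41 ± 0.22, adjusted p = 0.24). Thus members of this family moved in both directions outside the pair described above as well.

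Of 7 other polygalacturonase probe sets 1 was higher in brm-1, 1 was lower in ga1-3, and 2 were higher and 2 lower in the double mutant. In this order the called shares were 14.3%, 14.3% and 57.1%, beside 14.7%, 8.79% and 23.6% of all probe sets. AT1G48100 rose by 1.43 in the double mutant and had 0.67 ± 0.29 in brm-1 and 0.37 in ga1-3. Its means in the wild type (2.43) and in ga1-3 (2.79) did not exceed the 2.72 to 3.01 of the BRM probe set in lines with brm-1. The size of its rise is therefore uncertain. AT1G56710 fell by 1.67 in ga1-3 and fell by 1.32 in ga1-3/brm-1, and had 0.77 in brm-1, not called. Its means in ga1-3 (2.18) and in ga1-3/brm-1 (2.53) were below the 2.72 to 3.01 of the BRM probe set in lines with brm-1. The sizes of both falls are therefore uncertain. AT3G61490 had 0.85 ± 0.24 in brm-1 and 0.82 in the double mutant, both called, and had 0.37 in ga1-3, not called. Of 4 acetylesterase probe sets named by the platform annotation, only AT5G26670 was called, in brm-1 and in the double mutant. The 1 galacturonosyltransferase probe set named by the platform annotation was not called in any mutant (0.43, 0.15 and 0.28), and no polygalacturonase inhibitor other than PGIP2 was measured by a named probe set.

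**Figure D4:**
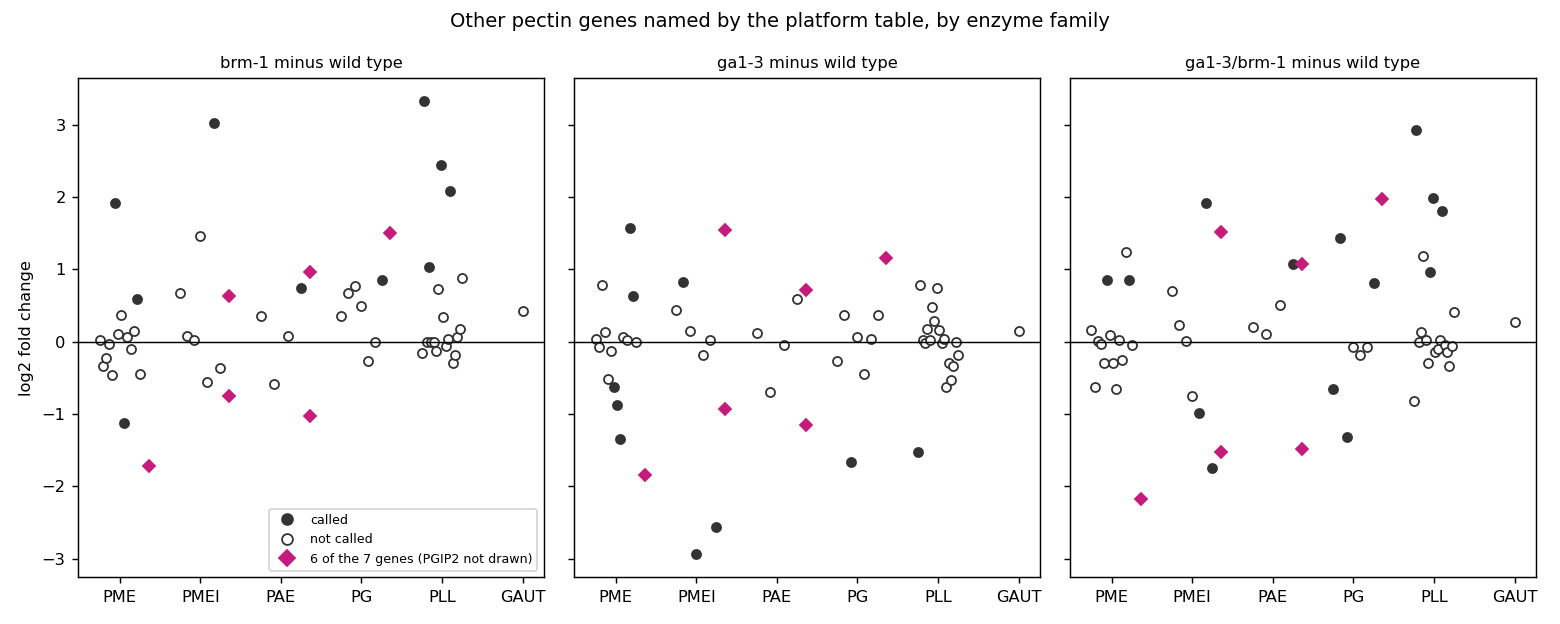
Log2 fold changes against the wild type (vertical axis) of the 51 other pectin-list probe sets by family (PME, methylesterase; PMEI, inhibitor family; PAE, acetylesterase; PG, polygalacturonase; PLL, pectate lyase; GAUT, galacturonosyltransferase) in the 3 mutants, from left to right brm-1, ga1-3 and the double mutant. Filled circles were called, open circles were not, and diamonds are 6 of the 7 genes; the highest pectate lyase circles belong to the left and right panels.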

How the data were processed

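The authors deposited log2 GC-RMA signals of 12 ATH1 arrays (Partek and GCRMA, per the submitters' processing notes) after a detection filter that left 16824 probe sets and cannot be undone here. Arrays have no read depth, so their number limits the precision. After removal of 60 control probe sets, a linear model with genotype was fitted to all 12 arrays in R 4.3.3 with limma 3.58.1 (eBayes, Benjamini-Hochberg adjustment over 16764 probe sets). Calls required an adjusted p under 0.05 together with a change of more than 1.5-fold. The second factor of the study's 2-way model is not given in the sources used here and was not modelled. The pipeline was tested on simulated data.

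The members and the gene lists were chosen with earlier results of these data known. The platform annotation named 4 of the 7 genes (it gives 1 gene for 9221 usable probe sets and several for 358). The names of PGIP2, AT3G62060 and AT5G23870, and of 1766 probe sets in all, came from the paper's tables alone, and 5777 were unnamed or had several genes. The pectin list holds loci, since the annotation has no descriptions. Named genes were the 7, the BRM check and the 2 probe sets most like each gene. Per family, up to 3 genes outside the 7 that were called in the double mutant with the largest change were also named. PMEPCRF, ATPMEPCRB, AT5G26670, the neighbouring genes and the genes that the paper's tables alone name were added after their values were seen, as was the comparison of ga1-3 with brm-1. Gene order came from the TAIR10.1 annotation. No sequences are shown, and a planned comparison of proteins was not run. Alternatives were another normalization or centring, ordinary variance, an intensity trend, a replicate block, 2 genotypes only, a filter on dim probe sets, other thresholds and each array left out. Python 3.11.15 and matplotlib 3.10.9 drew the figures.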

Additional observations from a re-analysis of the deposited data

Results flagged for a closer look

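For 2 of the 7 genes the change made by brm-1 was flagged as different with and without ga1-3, by an adjusted p under 0.05 for the interaction. All probe sets, of which 8.90% passed it, were not chosen by their single-mutant changes and are no yardstick. AT3G10720 had -1.72 from the wild type to brm-1 and -0.32 from ga1-3 to the double mutant, a difference of 1.41 on the log2 scale. AT5G23870 had -1.03 and -0.35, a difference of 0.68. Both genes were chosen for their changes in the single mutants, which enter these differences, so the values are a description and not a test of these genes. Beyond the comparison of whole arrays, in which brm-1 replicate 3 stood apart, groups of 3 arrays were not searched for outlying samples.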

How the results depend on the processing

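All 7 genes were called in the double mutant against the wild type, with the same direction, under every alternative run, each array left out included. Over the leave-one-out fits the number of the 7 genes called was 6 to 7 for brm-1, 7 for ga1-3 and for the double mutant, 2 against brm-1, 1 to 2 against ga1-3 and 1 between the single mutants. AT3G62820 lost its call in brm-1 (0.63) without wild-type replicate 2 (0.55), wild-type replicate 3 (0.54), brm-1 replicate 1 (0.58) or brm-1 replicate 2 (0.58), with the arrays of the 2 genotypes only, and at an adjusted p under 0.01, where AT3G62060 also lost its call in ga1-3. Differences that changed sign were all uncalled and close to 0. PGIP2 had 0.07 for the double mutant against ga1-3 without double-mutant replicate 3 and 0.00 for ga1-3 against brm-1 without brm-1 replicate 3, and AT3G10720 had 0.16 there. AT3G62820 had 0.04, 0.02, 0.01 and 0.06 for the double mutant against ga1-3 without ga1-3 replicate 1 or 3 or double-mutant replicate 1 or 2. The lowest values of these 4 differences were -0.31, -0.24, -0.30 and -0.15, in the order given, when another array was left out.

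With the replicate number as a block the 7 genes gave 7, 7, 7, 2, 2 and 1 calls in the same comparisons, and the block changed no call of theirs; the other pectin list gave 9, 6, 13, 5 and 11 calls. No pairing of the arrays by number was seen, since only 1 of 18 same-number pairs had a correlation of deviations over 0.1. With 3 arrays per genotype this cannot decide whether arrays of the same number share a batch.

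The other pectin list moved more. In brm-1 its 10 calls became 6 with ordinary variance and 6 at an adjusted p under 0.01. In ga1-3 its 10 became 5 with ordinary variance and 3 at the stricter p. The double mutant's 14 became 9 at the stricter p. Its 5 calls against brm-1 became 2 with the arrays of the 2 genotypes only and 1 at the stricter p, and its 12 against ga1-3 became 6. Leave-one-out ranges were 6 to 11, 4 to 10, 10 to 15, 4 to 7 and 8 to 15. The count in brm-1 was 6 without wild-type replicate 1 or 2 or brm-1 replicate 1, and 10 (7 higher, 3 lower) without brm-1 replicate 3. In ga1-3 it was 6, 4 and 4 without wild-type replicate 1, 2 or 3 and 4 and 5 without ga1-3 replicate 1 or 2. Over all probe sets the stricter p left 1617 of 2459 calls in brm-1, 811 of 1474 in ga1-3 and 691 of 1468 between the double mutant and brm-1. With no fold threshold 2262 were called in ga1-3, 6236 in the double mutant, 2408 against brm-1 and 5749 against ga1-3, and with 2 genotypes only 896 against brm-1. Leave-one-out ranges over all probe sets were 2046 to 2465, 1103 to 1648, 3623 to 4088, 1007 to 1579 and 3092 to 3598.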

Other observations

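Some genes outside the list followed the 12-array pattern of the 7 genes closely, among 9217 named probe sets searched. The correlations are a description over 12 arrays that share 4 genotypes, and they carry no p. AT1G14890 was most like AT1G61900 (r = 0.986) and IAA29, an auxin-response repressor (r = 0.960). IAA29 had -1.47 in brm-1, -2.06 in ga1-3 and -3.34 for the double mutant, so that it too was lowest in the double mutant. Its mean there, 2.72, was as low as that of BRM in lines with brm-1, so the size of this fall is uncertain. AT4G33440 was most like UGT73B1, a glucosyltransferase gene (r = 0.970), with 1.81, 1.34 and 1.91, and AT2G35840 (r = 0.966). AT5G23870 was most like AT3G18560 (r = 0.966), with -1.70, -1.68 and -2.16, and AT1G76020 (r = 0.963). AT3G62820 was most like AT3G47590 (r = 0.968) and AT1G54410 (r = 0.955), whose changes were smaller (0.44 and 0.52 in the double mutant). The most alike were AT4G03230 (r = 0.951) and AT1G78450 (r = 0.948) for AT3G10720, RR16, a cytokinin response regulator (r = 0.934), and AT5G16070 (r = 0.934) for AT3G62060, and AT2G39210 (r = 0.926) and AT4G27900 (r = 0.918) for PGIP2.

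Of the 14 protein-coding genes that flank the 7 genes, 5 had a named probe set. HMGA, a chromatin protein gene next to AT1G14890, fell by 0.77 in ga1-3 and 0.89 for the double mutant and had -0.50 ± 0.17 in brm-1, not called. TUB8, a tubulin gene next to AT5G23870, fell by 1.53 in ga1-3 and 0.74 for the double mutant and had 0.33 in brm-1. AT3G62050, AT3G62810 and CPSF100 were not called in any mutant.

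A further 10 probe sets of the pectin list, other than those of the 7 genes, have names from the paper's tables alone. Those tables hold only genes that were called there, so these probe sets are left out of the counts above. Of them, 2 were called higher and 3 lower in brm-1, 1 higher and 2 lower in ga1-3, and 3 higher and 4 lower in ga1-3/brm-1. The polygalacturonase genes PG1 and PG2 had 1.63 and 1.35 in brm-1, -0.03 and 0.38 in ga1-3, and 1.56 and 1.63 with both alleles. The methylesterase genes AT2G26440 and PME3 had -2.82 and -2.24 in brm-1, -0.06 and -0.40 in ga1-3, and -2.15 and -1.51 with both alleles. PME1 (AT4G12390), listed in the inhibitor family, had -1.56 in brm-1, -0.23 in ga1-3 and -0.44 with both alleles, and was called in brm-1 alone. PME44 had -0.89, -1.06 and -1.49 and was called in the double mutant alone. PME31 had 0.06, 0.44 and 0.51, with no call. The acetylesterase gene AT2G46930 had 0.20, 0.72 and 0.97, and AT5G45280, of the same family, had -0.64, -1.88 and -1.08, both called in ga1-3 and in the double mutant. GAUT7, a galacturonosyltransferase gene, fell by 0.69 in ga1-3 (adjusted p = 0.012) and had 0.27 in brm-1 and -0.02 with both alleles.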
